A study of Danio rerio with 2 samples.

Results

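The integrated stress response and its ATF4 targets were followed in the livers of zebrafish (Danio rerio) on a high-fat diet, as 10 genes: atf4a, atf4b, ddit3, chac1, trib3, asns, psat1, phgdh, sesn2 and ppp1r15a. Each gene was found by the name that an Ensembl name table gives to its identifier, and all 10 were found among the 25939 genes of the deposited table. The symbol in the deposited table served as a check. It matched in any letter case for most of them, but both atf4 copies are called atf4 there, and the trib3 gene (ENSDARG00000016200) is called TRIB2. A wild-type library (genotype WT) and a library from fish without a working ambp gene (labelled ambp ko) were compared, with 1 library per genotype. Both groups ate the high-fat diet, so no normal-diet level is known here. The kind of ambp allele, the strain, age and sex of the fish and the number of fish behind a library are not stated in the labels. The gene ambp encodes the precursor of the plasma proteins alpha-1-microglobulin, which binds heme, and bikunin.

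In the integrated stress response, kinases that sense amino acid shortage, unfolded proteins, double-stranded RNA or lack of heme phosphorylate the translation factor eIF2. Most protein synthesis then slows, while the mRNA of the transcription factor ATF4 is translated more, so much of the control of ATF4 is not visible in its mRNA level. In mammals, ATF4 pairs with C/EBP proteins and raises genes for amino acid import, amino acid synthesis and tRNA charging, together with the factor CHOP and the phosphatase subunit GADD34, which ends the response. The liver uses this pathway when amino acids run short and when the secretory pathway is under load.

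The wild-type library held 15659846 reads and the knockout library 18357830, as deposited estimated counts rounded to whole numbers. Levels are given as CPM, the read count scaled to library size, after TMM scaling, where 1 read was worth 0.0697 CPM in wild type against 0.0499 CPM in the knockout. Without replicates, no test was made, and the 95% intervals given cover counting error only. The targeted gene ambp stood at 3506 CPM in wild type against 154 CPM in the library labelled as knockout, a 22.8-fold lower level (22.0 to 23.6). Hepatocyte markers were abundant in both, with a summed level over 10 genes of 193918 CPM in wild type against 171516 CPM in the knockout. As a share of all reads they took 17.8% and 18.7%, so the direction of this difference depends on the scaling. Summed levels of markers of other cells differed: all 14 exocrine pancreas genes had ratios above 0, and their summed level was 56.1 and 484 CPM. The summed level of 21 macrophage genes was 374 and 514 CPM, with 5 genes at 0 reads in wild type against 4 in the knockout. For 7 erythroid genes it was 467 and 269 CPM, with 1 at 0 in each. For 8 genes taken as neutrophil markers it was 61.3 and 104 CPM, with 2 and 1 at 0. The listed neutrophil marker mpx was not found by name. The most abundant neutrophil gene, il6r, held 58.1 CPM of the wild-type sum and 67.8 CPM of the knockout sum. In wild type 2 genes of that list reached 1 CPM. An epx copy (ENSDARG00000019521) had 1 read in wild type against 556 in the knockout, or 27.7 CPM there, and lyz had 4 and 94 reads. Of the 5 measured neutrophil genes, 4 had ratios above 0 and 1 below. The neutrophil genes given here were named after their values were seen. The summed level of the biliary genes was 2114 and 2534 CPM, but 3 of the measured ones had ratios above 0 and 3 below. The part of these cells in the results below was not tested. In bulk liver RNA, fewer cells of a type and less RNA per cell cannot be told apart.

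The response genes did not move together. Of the 10 genes, 8 reached 1 CPM in a library and count as measured; psat1 and phgdh did not. Ratios on the log2 scale, knockout over wild type, carry a pseudocount of 1 CPM, and a gene counts as higher or lower when it passes 2-fold on that scale. Folds given beside them carry no pseudocount, so a fold past a threshold need not pass the rule. By this rule 3 members were lower (chac1, trib3 and ppp1r15a), 1 was higher (ddit3) and 4 lay between. Over all 11634 measured genes, 6.40% were lower, 5.40% were higher and 11.8% passed the rule either way. The members' ratios ran from -2.06 to 1.19 with a median of -0.01, and the median over all measured genes was 0.00. The members were picked with earlier results of these libraries known, so the count is a description.

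**Figure D1:**
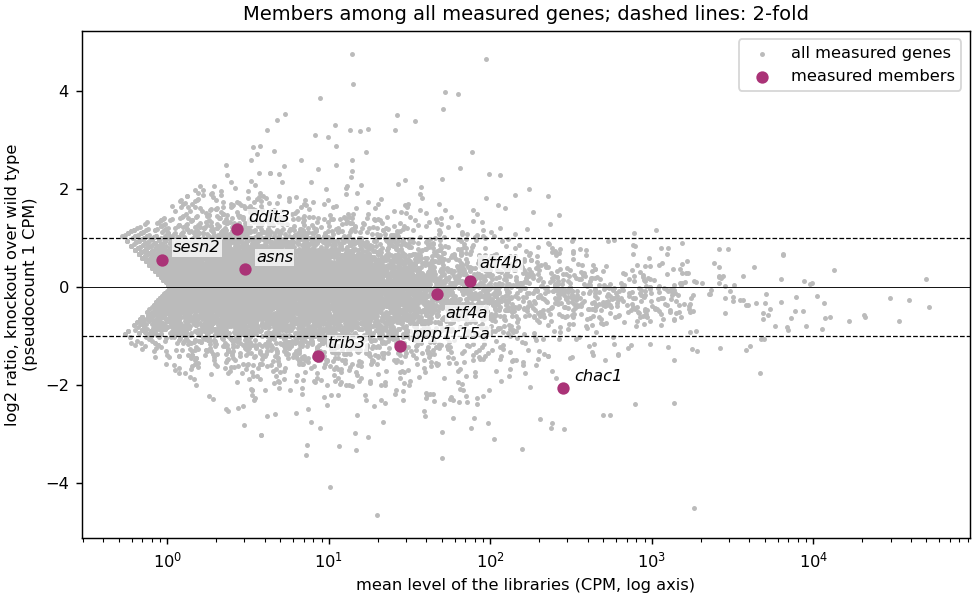
Log2 ratio of knockout over wild type (vertical axis, pseudocount 1 CPM) against the mean level of the libraries in CPM (log axis), for the 11634 measured genes (grey) and the 8 measured members (purple); dashed lines mark 2-fold. The genes chac1, trib3 and ppp1r15a lie below the lower line, ddit3 lies above the upper line, and atf4a and atf4b lie near 0.

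Levels of different genes were compared per length, with the deposited FPKM. In wild type the order was chac1 at 268 FPKM, atf4b at 33.0, atf4a at 31.8, ppp1r15a at 18.8, trib3 at 5.36, ddit3 at 0.83, asns at 0.70, psat1 at 0.32, sesn2 at 0.31 and phgdh at 0.03. The neighbours atf4b and atf4a overlapped in their counting intervals there, and so did each neighbouring pair from ddit3 down to phgdh. In the knockout chac1 was still first at 76.3 FPKM, followed by atf4b at 43.1, atf4a at 34.3 and ppp1r15a at 9.36. There ddit3, at 3.26 FPKM (2.60 to 4.04), stood above trib3, at 2.12 (1.69 to 2.62), although these intervals touch. The remaining knockout levels were 1.18 FPKM for asns, 0.73 for sesn2, 0.48 for psat1 and 0.02 for phgdh, where asns and sesn2, and sesn2 and psat1, overlapped. By FPKM, chac1 ranked 290 in wild type but 657 in the knockout among all genes of the table.

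**Figure D2:**
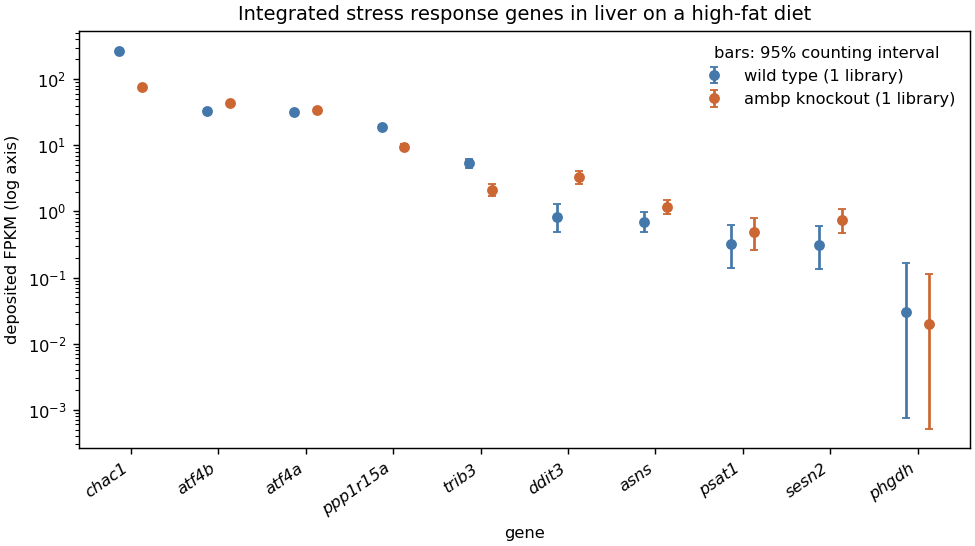
Deposited FPKM (log axis) of the 10 genes in the wild-type library (blue) and the ambp knockout library (orange), with 95% counting intervals as bars and genes ordered by wild-type level. The libraries are far apart at chac1 (268 against 76.3 FPKM), apart the same way at trib3 and ppp1r15a, apart the other way at ddit3, and hardly separated at atf4a.

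The regulator mRNAs differed little. ATF4 is the transcription factor at the centre of the response, and zebrafish carry it as the copies atf4a and atf4b. The copy atf4a (ENSDARG00000111939) had 701 reads or 48.9 CPM (45.3 to 52.6) in wild type against 884 reads or 44.1 CPM (41.2 to 47.1) in the knockout. Its fold of knockout over wild type was 0.902 (0.816 to 0.998), and the log2 ratio of -0.15 changed sign under other scalings, to 0.10 with library totals. Library totals move the median of all genes to 0.22. Relative to that median in each setting, the ratio of atf4a lay between -0.18 and -0.05. The copy atf4b (ENSDARG00000038141) had 1024 reads or 71.4 CPM (67.1 to 75.9) in wild type against 1567 reads or 78.2 CPM (74.4 to 82.1) in the knockout, a fold of 1.1 (1.01 to 1.19). For both copies the counting intervals of the libraries overlapped in CPM. In FPKM those of atf4b were apart, at 31.0 to 35.1 in wild type and 41.0 to 45.3 in the knockout. The log2 ratio of atf4b was 0.13, or 0.38 with library totals, and relative to the median of all genes it lay between 0.09 and 0.23. Set against each other, which no scaling can change, atf4b over atf4a was 1.21 times as high in the knockout as in wild type (1.07 to 1.38). These copies are paralogs, and reads shared between them would blur that value.

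The mRNA of ddit3, which encodes CHOP, was the only member higher by the rule. CHOP is a C/EBP-family factor that ATF4 raises in mammals and that promotes cell death under long stress. The gene ddit3 (ENSDARG00000059836) had 18 reads or 1.25 CPM (0.744 to 1.98) in wild type against 83 reads or 4.14 CPM (3.30 to 5.13) in the knockout. Its level was 3.30-fold higher in the knockout (1.96 to 5.84), and the counting intervals of the libraries did not overlap. At these read numbers the interval of the fold reaches just below 2. With a pseudocount of 5 CPM the log2 ratio was 0.55 and no longer passed the rule.

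The glutathione-degrading enzyme gene chac1 was the most abundant member and the furthest lower. Its product cleaves glutathione, and in mammals it is raised by ATF4 and CHOP. The gene (ENSDARG00000070426) had 6561 reads or 457 CPM (446 to 469) in wild type against 2189 reads or 109 CPM (105 to 114) in the knockout. That is a 4.19-fold lower level (3.99 to 4.40) and a log2 ratio of -2.06, rank 87 from the lowest of 11634. The estimated counts of chac1 were not whole in the deposited table, unlike those of the other 9 members, for which the labels give no reason. Of all reads on the 10 members, chac1 took 72.1% in wild type (exact binomial interval 71.2 to 73.0) and 41.7% in the knockout (40.4 to 43.1). The members summed to 634 CPM in wild type against 262 CPM in the knockout. Without chac1 the sums were 177 and 153 CPM (2538 and 3058 reads), so most of the difference in the sum lay in this gene. The direction of the sum without chac1 depends on the scaling, as it is slightly higher in the knockout with library totals.

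The pseudokinase gene trib3 was lower as well. TRIB3 is a target of ATF4 and CHOP in mammals and holds back both ATF4 and the insulin-signalling kinase AKT. It had 183 reads or 12.8 CPM (11.0 to 14.7) in wild type against 85 reads or 4.24 CPM (3.39 to 5.24) in the knockout. The knockout level was 3.01-fold lower (2.31 to 3.94), with no overlap of the intervals. The log2 ratio of -1.39 became -0.94 with a pseudocount of 5 CPM.

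On the feedback side, ppp1r15a was lower and its relative ppp1r15b stood just inside the rule. In mammals GADD34, from PPP1R15A, is induced by the response and brings protein phosphatase 1 to eIF2, while the PPP1R15B product does so at all times. The zebrafish gene ppp1r15a (ENSDARG00000069135) had 559 reads or 39.0 CPM (35.8 to 42.3) in wild type against 327 reads or 16.3 CPM (14.6 to 18.2) in the knockout. This was a 2.39-fold lower level (2.08 to 2.75), and the intervals did not overlap. Its log2 ratio was -1.21, or -0.96 with library totals and -0.93 with the deposited FPKM. Those scalings move the median of all genes to 0.22 and 0.19, and relative to that median the ratio lay between -1.25 and -1.04 in every setting tried. The gene ppp1r15b (ENSDARG00000068128) had 78 reads in wild type against 53 in the knockout, with a log2 ratio of -0.82. A locus without an Ensembl identifier, also called PPP1R15B in the deposited table, had 134 and 164 reads (-0.17), so the sum for that name depends on which locus is taken.

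With a stricter rule, chosen after the data were seen, a gene is called only where the whole counting interval of its fold lies past 2. All 3 lower members were called lower this way, where 4.97% of all measured genes were. The gene ddit3 was not called higher, where 3.87% of all measured genes were.

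The amino acid synthesis targets were barely expressed. Asparagine synthetase makes asparagine from aspartate and glutamine, and in mammals its gene is a classic ATF4 target. The gene asns (ENSDARG00000016375) had 36 reads or 2.51 CPM (1.76 to 3.47) in wild type against 71 reads or 3.54 CPM (2.77 to 4.47) in the knockout. Its fold of 1.41 (0.932 to 2.17) includes 1, and the intervals of the libraries overlapped. Serine is made from a glycolytic intermediate by the products of phgdh, psat1 and psph in turn. The gene for the entry step, phgdh (ENSDARG00000001873), had 1 read in each library. The gene for the next step, psat1 (ENSDARG00000016733), had 8 reads in wild type against 14 in the knockout, a fold of 1.25 (0.490 to 3.45). The gene for the last step, psph, had 40 and 75 reads and a log2 ratio of 0.32. No difference in phgdh or psat1 was detectable at this depth: phgdh lay under the floor of 3 reads, worth 0.209 CPM in wild type against 0.150 CPM in the knockout, and the interval of psat1 spans 1.

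Sestrin 2 restrains the growth kinase complex mTORC1 and in mammals is raised by ATF4. The gene sesn2 (ENSDARG00000070012) had 8 reads or 0.558 CPM (0.241 to 1.1) in wild type against 26 reads or 1.30 CPM (0.847 to 1.90) in the knockout. Its fold was 2.33 with a wide interval (1.02 to 5.94), and its log2 ratio with the pseudocount was 0.56. It passed the 1 CPM filter only through the knockout library, so its place among the measured members depends on the higher value.

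Ratios between members within a library do not depend on scaling. In wild type chac1 stood at 8.13 times the FPKM of atf4b, and in the knockout at 1.77 times. By reads, chac1 relative to atf4b was 4.59-fold lower in the knockout (4.18 to 5.04), trib3 relative to atf4b was 3.29-fold lower (2.50 to 4.36) and ppp1r15a relative to atf4b was 2.62-fold lower (2.23 to 3.07). Relative to atf4a the same genes were 3.78-fold (3.38 to 4.23), 2.71-fold (2.05 to 3.62) and 2.16-fold lower (1.81 to 2.56). In the other direction, ddit3 relative to atf4b was 3.01-fold higher (1.78 to 5.36). Among the pairs computed, the gap was widest between ddit3 and chac1, whose ratio differed 13.8-fold between the libraries (8.20 to 24.5). Among the lower genes, trib3 and ppp1r15a could not be told apart by this measure, with trib3 over ppp1r15a at 0.794 of its wild-type value (0.586 to 1.07). These intervals again describe reads of a library pair, not variation between fish.

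**Figure D3:**
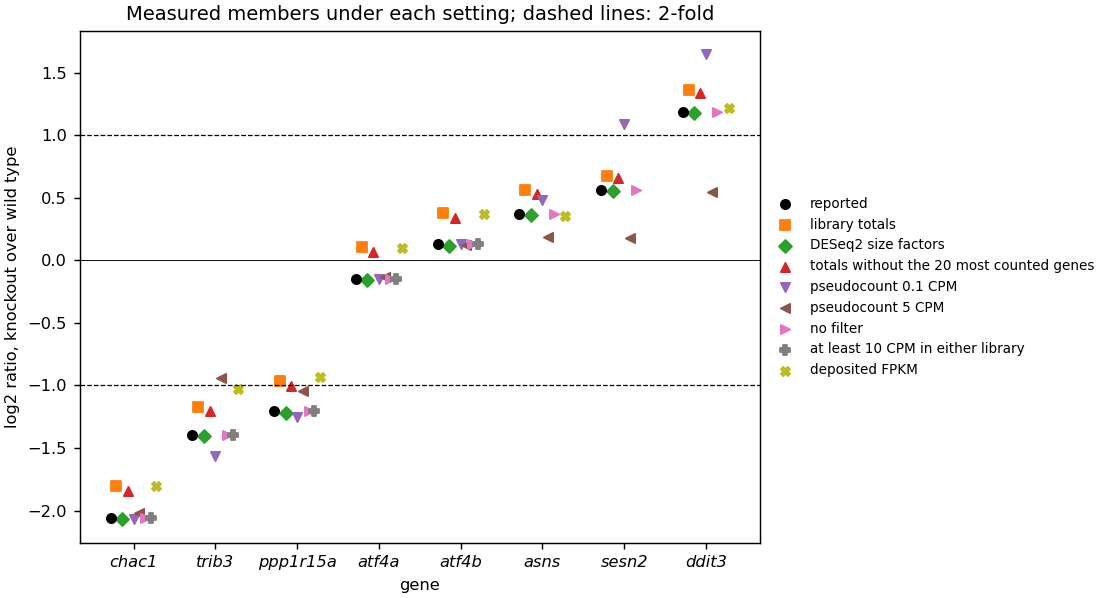
Log2 ratio of knockout over wild type for the 8 measured members under the reported setting (black) and 8 others (colours), with 2-fold as dashed lines. In every setting chac1 lies at -1.80 or lower, atf4a crosses 0 between scalings, trib3 and ppp1r15a move around the lower line, and ddit3 drops under the upper line with a pseudocount of 5 CPM.

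Beside the members, all measured genes of the eIF2 kinase list and of the list around eIF2 lay between the 2-fold lines. Of the eIF2 kinases, eif2ak1, which senses heme, had 157 reads in wild type against 154 in the knockout (log2 ratio -0.46), and eif2ak3, the kinase of the endoplasmic reticulum called PERK, had 30 and 56 (0.30). The kinase gene pkz had 17 and 27 reads (0.10). Its relative eif2ak2 had 0 reads in wild type against 13 in the knockout, at least 3.10-fold higher if wild type is set to a floor of 3 reads in its library, with 2.18 as the lower end of the counting interval. It stayed under 1 CPM in both libraries, and the amino acid sensor eif2ak4 was not analysed here. A list of eIF2, its exchange factor eIF2B, the phosphatase and further genes around eIF2 or its kinases (impact, eif2a, eif2d and dele1) held 17 measured genes. None was higher or lower by the rule, where 11.8% of all measured genes passed it either way. The median was -0.10, or 0.15 with library totals. The subunit genes with most reads were eif2s3b, with 4272 and 5643 reads (-0.08), and an eif2s1 copy (ENSDARG00000052178) with 3360 and 3949 (-0.25). Among genes of this list with 100 reads or more in a library, the largest ratios were -0.77 for dele1, which in mammals relays mitochondrial stress to the heme-sensing kinase, and 0.50 for the phosphatase catalytic gene ppp1cb.

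Possible dimer partners and related bZIP factors went both ways. Of 9 measured genes, 2 were higher and 2 lower, against 5.40% and 6.40% of all measured genes. The list's median of 0.11 became -0.32 with a filter at 10 CPM. The gene atf5a, a close relative of atf4 whose mammalian counterpart is also under eIF2 control, had 18 reads in wild type against 139 in the knockout, a 5.53-fold higher level (3.37 to 9.60). Its more abundant copy atf5b, named after its value was seen, had 1743 and 1934 reads and a log2 ratio of -0.33. The other genes past the rule were nfe2l2 (1.04), the antioxidant regulator, and cebpd (-1.58) and cebpa (-1.31), of which cebpd had most reads, 4127 and 1918. The fold of nfe2l2 was 2.08 (1.93 to 2.24), so its interval reaches just below 2.

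**Figure D4:**
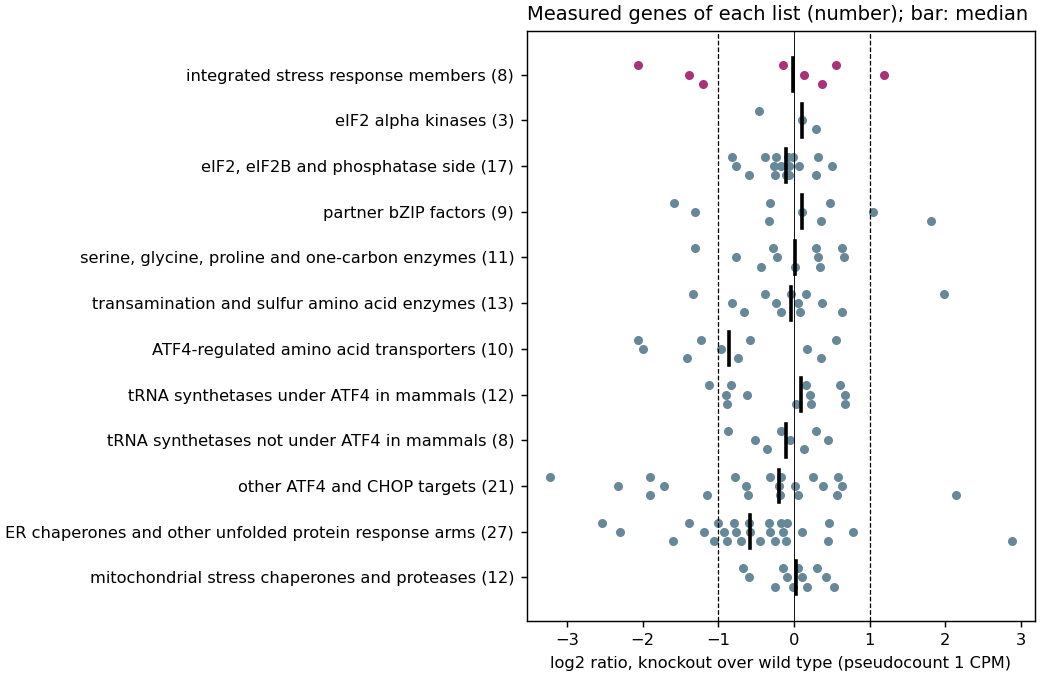
Log2 ratio of knockout over wild type (horizontal axis, pseudocount 1 CPM) of every measured gene in the member list (purple) and 11 related lists (blue-grey), with the number of genes beside each list name, black bars at the medians and dashed lines at 2-fold. The median of the amino acid transporters is -0.85 and that of the chaperones of the endoplasmic reticulum -0.58, and the medians of the charging, eIF2 and mitochondrial lists lie near 0.

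Of 10 measured genes for amino acid importers linked to ATF4 in mammals, 3 had ratios above 0, with a median of -0.85. By the rule 4 were lower and none was higher, against 6.40% lower and 5.40% higher over all measured genes. The 4 were a slc3a2 gene (ENSDARG00000037012), a slc43a1 copy (ENSDARG00000037393) and, named after their values were seen, slc38a2 and a slc7a3 copy (ENSDARG00000061566). The slc3a2 gene encodes the shared heavy chain of several amino acid exchangers and had 167 reads in wild type against 41 in the knockout, a 5.69-fold lower level (4.02 to 8.22). The glutamine carrier slc38a2 had 928 and 544 reads (log2 ratio -1.22). The more abundant heavy-chain copy slc3a2a (ENSDARG00000036427), named after its value was seen, had 504 and 465 reads (-0.58) and did not pass the rule. Copies that share a name parted: the slc43a1 copies had -2.00 and 0.56, the slc7a3 copies -1.42 and 0.17 and the slc38a3 copies -0.74 and 0.36. Paralogs can share reads, so the split within a name is uncertain. The median of the transporters stayed below that of all genes in each of the 9 settings that gave a value; it was -0.25 without the filter on low levels and -0.44 with FPKM.

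Genes for tRNA charging did not share a direction. Of 12 measured genes that ATF4 controls in mammals, which are charging enzymes and the tRNA exporter gene xpot, 7 had ratios above 0. Only the threonine enzyme gene tars1 passed the rule, where 11.8% of all measured genes did either way. It had 425 reads in wild type against 262 in the knockout (-1.12). The most abundant were sars1, with 1508 and 2441 reads (0.21), and aars1, with 1199 and 2680 (0.67), while mars1 had 158 and 109 (-0.90). The median was 0.10 in this list and -0.11 over 8 measured charging enzymes taken as outside ATF4 control in mammals. None of the 8 passed the rule, and their median was 0.14 with library totals. They include a gene (ENSDARG00000003693) called hars2 by its Ensembl name and hars in the deposited table. In the latter list kars1 stood at 0.45, vars1 at -0.51 and qars1 at -0.86.

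**Figure D5:**
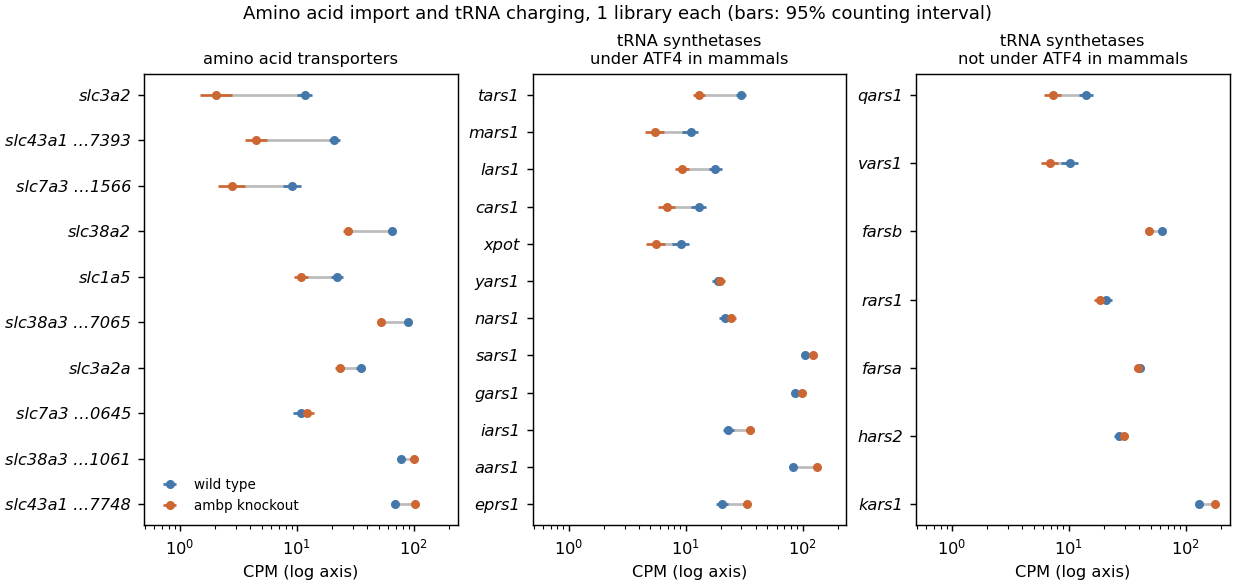
Levels in CPM (log axis) in the wild-type library (blue) and the ambp knockout library (orange), with 95% counting intervals. Panels show measured amino acid transporter genes (left), charging enzymes under ATF4 in mammals with the exporter gene xpot (middle) and enzymes taken as not under it (right). The last digits of the identifier mark copies that share a name. The slc3a2 gene lies well to the left in the knockout, while the genes of the other panels part in both directions by less than 2-fold, except tars1 and mars1, which are more than 2-fold lower by CPM.

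Of 11 measured genes of serine, glycine, proline and one-carbon metabolism, only gldc of glycine cleavage was past the rule, with 663 and 363 reads (-1.31). Over all measured genes 11.8% passed it either way. The list's median was 0.02. The abundant members were aldh1l1, a folate dehydrogenase with 20442 and 16771 reads (-0.77), and shmt1, which interconverts serine and glycine, with 4352 and 9619 (0.66). Among 13 genes, mostly of transamination and sulfur amino acid steps, the median was -0.04, or 0.21 with library totals. There cbs, of the step that turns homocysteine to cystathionine, had 8678 and 4816 reads (-1.33), and its copy cbsb had 1376 and 1210 (-0.66). The step after that of cbs has 2 cth copies, both named after their values were seen. The abundant copy (ENSDARG00000074301) had 788 and 1071 reads (-0.04). The other (ENSDARG00000032206) had 0 and 59 reads, at least 14.1-fold higher with the same floor (lower end of the counting interval 11.1). It passed the 1 CPM filter only through the knockout library, and paralogs can share reads. The most abundant genes of the list were pck2, which is of neither kind of step, and a gpt copy (ENSDARG00000019541, deposited as gpt2l). The gene pck2, called Pck1 in the deposited table, had 16816 and 30351 reads (0.37). The gpt copy had 9843 and 15339 (0.16).

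Further genes taken as targets of ATF4 or CHOP were mixed, and those past the rule were mostly lower. Of 21 measured genes, 6 were lower and 1 higher, against 6.40% and 5.40% of all measured genes. The list's median of -0.19 ran from -0.71 to -0.04 over the settings tried. The stress-induced inhibitor of mTORC1, ddit4, had 200 reads in wild type against 12 in the knockout, and a gadd45b copy (ENSDARG00000027744), of growth arrest, had 1085 and 287. A copy of the kinase gene mknk2 (ENSDARG00000011373) had 2658 and 978 reads, a 3.80-fold lower level (3.53 to 4.09). The other mknk2 copy (ENSDARG00000015164), named after its value was seen, had 1387 and 1694 reads (-0.19), and paralogs can share reads. The gene nupr1b, for a small stress-induced chromatin protein, had 1824 and 1474 reads (-0.78). Its less abundant copy nupr1a, named after its value was seen, went the other way, with 128 and 275 reads (0.57).

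The arms of the unfolded protein response that run beside PERK, with their chaperones, held 27 measured genes. Of these 7 were lower and 1 was higher, against 6.40% and 5.40% of all measured genes. In this list 5 had ratios above 0, and the median was -0.58. By the counting interval 4 were lower, where 4.97% of all measured genes were. The list's median became -0.34 with library totals, or -0.30 at a 5 CPM pseudocount. The chaperone hspa5 had the lowest ratio, -2.53, and the calreticulin gene calr3a, of the 2 with most reads, had 2479 and 2293 (-0.59). The other of the 2, the factor gene xbp1, had 1509 and 2881 reads (0.45). The 1 higher gene was creb3l3a (deposited as creb3l3b), a membrane-bound liver factor, with 27 reads in wild type against 404 in the knockout, a 10.7-fold higher level (7.25 to 16.5). None of 12 measured mitochondrial stress chaperones and proteases passed the rule, where 11.8% of all measured genes did either way. The median of this mitochondrial list was 0.02, with hspa9 at -0.60, lonp1 at -0.67 and hspe1 at 0.17.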

How the data were processed

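Poly(A) RNA from liver was made into 1 library per genotype with the NEBNext Ultra kit, per the labels' protocols. The submitters' processing notes list HISAT2, featureCounts and the build GRCz11 with no roles. Per the file headers, the authors deposited FPKM values and estimated counts per gene (5.45% not whole in wild type, 6.01% in the knockout), which were rounded. Lengths and totals behind the FPKM are not stated. Of the sample columns, 4 were used and 0 were unmatched.

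Names came from an Ensembl table, matched by identifier for 23499 of 25939 genes. List names without a match were searched without their copy letter or number, then in the deposited symbols. TMM factors were 0.916 and 1.09 (edgeR 4.0.16, R 4.3.3); intervals are exact Poisson, conditional binomial or conditional odds-ratio intervals at 95% (SciPy 1.17.1). The scaling and ratio steps were tested on simulated data. DESeq2 1.42.0 size factors were an alternative.

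The members and lists were chosen with earlier results of these data known. Named were the members, the eIF2 kinases, ppp1r15b and ambp. In each list the 2 genes with most reads were named, and the 2 with the largest ratio among those with 100 reads or more in a library. Other names, such as psph, cebpa, the slc38a3 copy ENSDARG00000027065 and the marker sums, were added after their values were seen. The rule also names 1 charging enzyme gene that is not reported here; it stays in the counts and medians.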

Additional observations from a re-analysis of the deposited data

How the results depend on the processing

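Values are for genes past the size rule, and no test was made with 1 library per genotype, so p-values and variation between fish cannot be given. No paired analysis was possible because each genotype has 1 library. Over all genes, 628 were higher and 744 lower as reported. Library totals gave 1071 higher and 485 lower. Changing the pseudocount gave 1279 and 1212 at 0.1 CPM, then 151 and 319 at 5 CPM. Under the 10 CPM filter 227 were higher, 433 lower. A 1.5-fold rule called 1904 higher and 1971 lower, a 3-fold rule 148 and 202. With totals that leave out the 20 most counted genes 987 were higher, and with FPKM 358 were lower. The share of higher among called genes was 45.8% as reported, 68.8% with library totals, 65.3% without the top 20, 64.3% with FPKM, 32.1% with 5 CPM and 34.4% with the 10 CPM filter. Among members, 2 were higher with a pseudocount of 0.1 CPM (ddit3 and sesn2), where 11.0% of all measured genes were. None was higher with 5 CPM (1.30% of all measured genes), with the 10 CPM filter (4.98%), at 3-fold (1.27%) or by the counting interval (3.87%). Lower members were 2 with library totals (4.13% of all measured genes) and with FPKM (3.78%), both without ppp1r15a. With 5 CPM 2 were lower (2.74%), without trib3, and at 3-fold 1 was (chac1, 1.74%). A filter or threshold acts by construction. The cause of other shifts was not tested. The median over the measured members ran from -1.21, with the 10 CPM filter that leaves 5 of them, to 0.24 with library totals, so its sign depends on the setting. The medians of the eIF2, partner bZIP, transamination and non-ATF4 charging lists also changed sign, as given above, and the mitochondrial one reached -0.01. Library totals also move the median of all genes, to 0.22. Relative to that median in each setting, the non-ATF4 charging list stayed below 0, at -0.15 to -0.01. The eIF2 list then ran from -0.13 to 0.02, partner bZIP from -0.23 to 0.14 and transamination from -0.08 to 0.08. The order of the list medians depends on the filter: without it the transporters stood at -0.25 and the endoplasmic reticulum list at -0.51, and at 10 CPM the transporters stood at -0.74. Of the other values recomputed, single ratios and list medians, 171 moved by less than their interval or, for a list, by less than its quartile deviation, 30 moved by more and 0 called ratios changed sign. Low read numbers limit ddit3, asns, sesn2, psat1 and phgdh most.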

Other observations

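Relatives of the members, chosen after their values were seen, parted from them in places. Among the sestrins, sesn1 had 1400 wild-type and 582 knockout reads, a 3.36-fold lower level (3.05 to 3.71). The gene sesn3 had 18 and 180, a 7.16-fold higher level (4.40 to 12.3). Both are already counted in the list above of further genes taken as ATF4 or CHOP targets, sesn1 as lower and sesn3 as higher. Among the tribbles genes, trib1, whose product marks C/EBP alpha for breakdown in mammals, had 220 and 111 reads, a 2.77-fold lower level (2.19 to 3.51) beside the 3.01-fold of trib3, and trib2 had 0 and 3 reads. The glutathione-cleaving relative chac2 had 74 and 84 reads and a log2 ratio of -0.25, against -2.06 for chac1. The gene gcn1, needed in yeast and mammals to activate the amino acid sensing kinase, had 627 and 853 reads (-0.04). The asparagine synthetase-like asnsd1 had 105 reads in each library (-0.42).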
